A study of Mus musculus with 4 samples.

Results

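The genes described are those of the mouse major histocompatibility complex (MHC, named H2 in the mouse) and of antigen presentation. They were taken from the gene table by name: every protein-coding gene whose symbol starts with H2-, and B2m, Tap1, Tap2, Tapbp, Tapbpl, Erap1, Nlrc5, Ciita, Cd74 and Cd1d1. The rule uses no measured value and finds 44 of the 54532 genes. They are 2 classical class I heavy chain genes, 22 nonclassical class I genes, 6 genes of class I assembly, 4 class II chain genes, 6 genes of class II peptide loading (Cd74 among them), 2 transactivator genes, the class I-like gene Cd1d1 and H2-Ke6. H2-Ke6 carries the H2- name by position, encodes a hydroxysteroid dehydrogenase and presents no antigen.

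RNA was sequenced from mouse primary T cells, with 2 libraries of untreated cells (Control) and 2 of cells treated with PTC, all labelled 12 h. Both groups were cultured in serum with the T cell growth cytokine IL2 and CD3/28 beads, which activate T cells, so the control is a stimulated culture and not a resting one. The labels give no strain, sex, age, PTC dose or expansion of the name PTC, and leave unsaid whether each library is its own culture or mouse. The p-values therefore reflect the spread of these samples alone, and that spread may be technical. Library totals ran from 15458818 to 16639911 counts, and the 44 genes took 1.22% to 1.36% of them. All 12 T cell markers examined were detected in every library, Cd3e at 353 to 412 CPM (read counts normalised to library size with edgeR's TMM factors) and Cd8a at 786 to 879 CPM.

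MHC class I molecules sit on nearly every nucleated cell and show peptides from inside the cell to CD8 T cells. A heavy chain, the product of H2-K1, H2-D1 or a nonclassical gene, folds with beta-2 microglobulin (B2m) on a peptide that the TAP transporter has moved into the endoplasmic reticulum. MHC class II molecules show peptides taken up from outside to CD4 T cells and are mainly made by B cells, dendritic cells and macrophages. Mouse T cells are known to make little class II of their own even after activation, whereas human T cells do make it. NLRC5 is the transactivator of class I genes and CIITA that of class II genes, and interferon-gamma raises both programs.

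The class I heavy chain genes are close relatives, and how far reads can be told apart depends on how many bases separate them. A stretch of 60 coding bases, which lies within 1 exon of each of 8 heavy chain genes on chromosome 17, is shown from the GENCODE M21 transcripts on GRCm38. It was chosen as the ungapped stretch with the most differences between H2-K1 and H2-D1, and capitals mark bases that differ from H2-K1.
H2-K1: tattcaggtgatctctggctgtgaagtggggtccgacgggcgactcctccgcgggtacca
H2-D1: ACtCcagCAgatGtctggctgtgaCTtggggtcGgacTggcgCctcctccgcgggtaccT
H2-Q4: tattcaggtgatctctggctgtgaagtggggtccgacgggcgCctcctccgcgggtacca
H2-Q6: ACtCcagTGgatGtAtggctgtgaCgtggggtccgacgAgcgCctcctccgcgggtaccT
H2-Q7: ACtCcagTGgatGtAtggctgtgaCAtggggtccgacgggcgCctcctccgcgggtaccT
H2-T23: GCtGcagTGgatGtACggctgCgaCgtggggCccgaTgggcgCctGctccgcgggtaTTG
H2-T22: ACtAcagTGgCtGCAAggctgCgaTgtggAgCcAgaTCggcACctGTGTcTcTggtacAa
H2-M3: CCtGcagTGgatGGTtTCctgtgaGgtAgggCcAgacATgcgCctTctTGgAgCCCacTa
The stretch lies at chr17:33999477-33999536 in H2-K1 (minus strand) and chr17:35263849-35263908 in H2-D1 (plus strand). In it H2-D1 differs from H2-K1 at 12 bases, H2-Q6 and H2-Q7 at 11 each and H2-T22 at 26. H2-Q4, in contrast, differs at 1 base. Over the whole coding sequence H2-K1 and H2-D1 were 91.4% identical, H2-Q6 and H2-Q7 95.4%, and H2-K1 and H2-T22 68.8%.

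Of the 50-base words in the longest protein-coding GENCODE transcript of H2-K1, 8.79% also occur in transcripts of other genes, against 14.3% for H2-D1, 34.9% for H2-Q7, 35.0% for H2-Q6, 39.2% for H2-Q4, 29.8% for H2-T23 and 44.7% for H2-T22. The main partner of H2-T22 was H2-T10 (37.9%), and that of H2-DMb2 was H2-DMb1 (25.2%). B2m, H2-Aa, H2-Ab1, H2-Eb1, Cd74 and Nlrc5 shared none. How reads that fit several places were counted is not given in the sources used here, so the split of counts among H2-Q4, H2-Q6, H2-Q7, H2-T22 and H2-T23, and between H2-DMb1 and H2-DMb2, is uncertain. The reference sequence is that of C57BL/6J mice and H2 genes differ greatly between mouse strains, so the levels of H2 loci also depend on a strain that the labels do not name.

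Promoters of the main genes are shown with DNA motifs known from class I and class II genes. Some of these motifs, the Y box among them, occurred in genes of both classes. Of the 44 genes, 35 matched an entry in the RefSeq promoter table (GRCm38.p6, 300 bases around the start). The 150 bases before the start are printed for B2m (chr2:122147537-122147686, plus strand), H2-K1 (chr17:34000334-34000483, minus), H2-Aa (chr17:34287824-34287973, minus) and H2-Eb1 (chr17:34305717-34305866, plus). Capitals mark an IRF motif (AANNGAAA), a kappaB motif (GGGGATTCC), a Y box (CTGATTGG) or an X box (CTAGCAAC), each searched on both strands.
B2m: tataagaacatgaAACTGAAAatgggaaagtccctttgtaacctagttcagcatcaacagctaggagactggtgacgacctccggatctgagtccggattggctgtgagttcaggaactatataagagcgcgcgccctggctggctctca
H2-K1: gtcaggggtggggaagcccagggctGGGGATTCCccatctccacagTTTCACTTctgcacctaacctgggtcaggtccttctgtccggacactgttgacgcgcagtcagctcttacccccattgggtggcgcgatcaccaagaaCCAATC
H2-Aa: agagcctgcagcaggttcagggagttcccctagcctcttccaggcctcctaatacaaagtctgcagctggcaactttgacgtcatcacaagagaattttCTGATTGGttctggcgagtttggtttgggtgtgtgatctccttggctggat
H2-Eb1: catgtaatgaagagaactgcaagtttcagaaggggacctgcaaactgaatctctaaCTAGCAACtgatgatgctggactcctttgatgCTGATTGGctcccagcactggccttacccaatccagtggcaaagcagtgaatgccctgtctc
In H2-K1 the kappaB and IRF motifs stand close together and the Y box runs past the start site, on the other strand. The kappaB letters were in the 300-base windows of H2-K1, H2-D1, H2-Q6 and H2-Q7, 4 of the 35, and in 0.25% of all 32851 promoters of that length. The Y box letters were in 18 of the 35 and 4.10% of all promoters, the X box letters in 3 (H2-Eb1, H2-Eb2 and H2-Ob) and 1.32%, and the IRF letters in 21 and 23.9%. The heavy chain genes are related by duplication, and a match is a description of letters and not a binding site.

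Among all genes, B2m ranked 22nd by mean level per length, H2-K1 35th, H2-D1 39th and Cd74 182nd. The level per length, in CPM per kilobase of the deposited gene length, was 1659 for B2m, 1243 for H2-K1 and 1221 for H2-D1 in Control cells. The next heavy chain genes, H2-T23 (140), H2-Q6 (134) and H2-Q7 (129), lay well under these and close to each other. Class II chain genes were at 90.6 (H2-Eb1), 87.0 (H2-Ab1) and 57.9 (H2-Aa) CPM per kilobase.

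**Figure D1:**
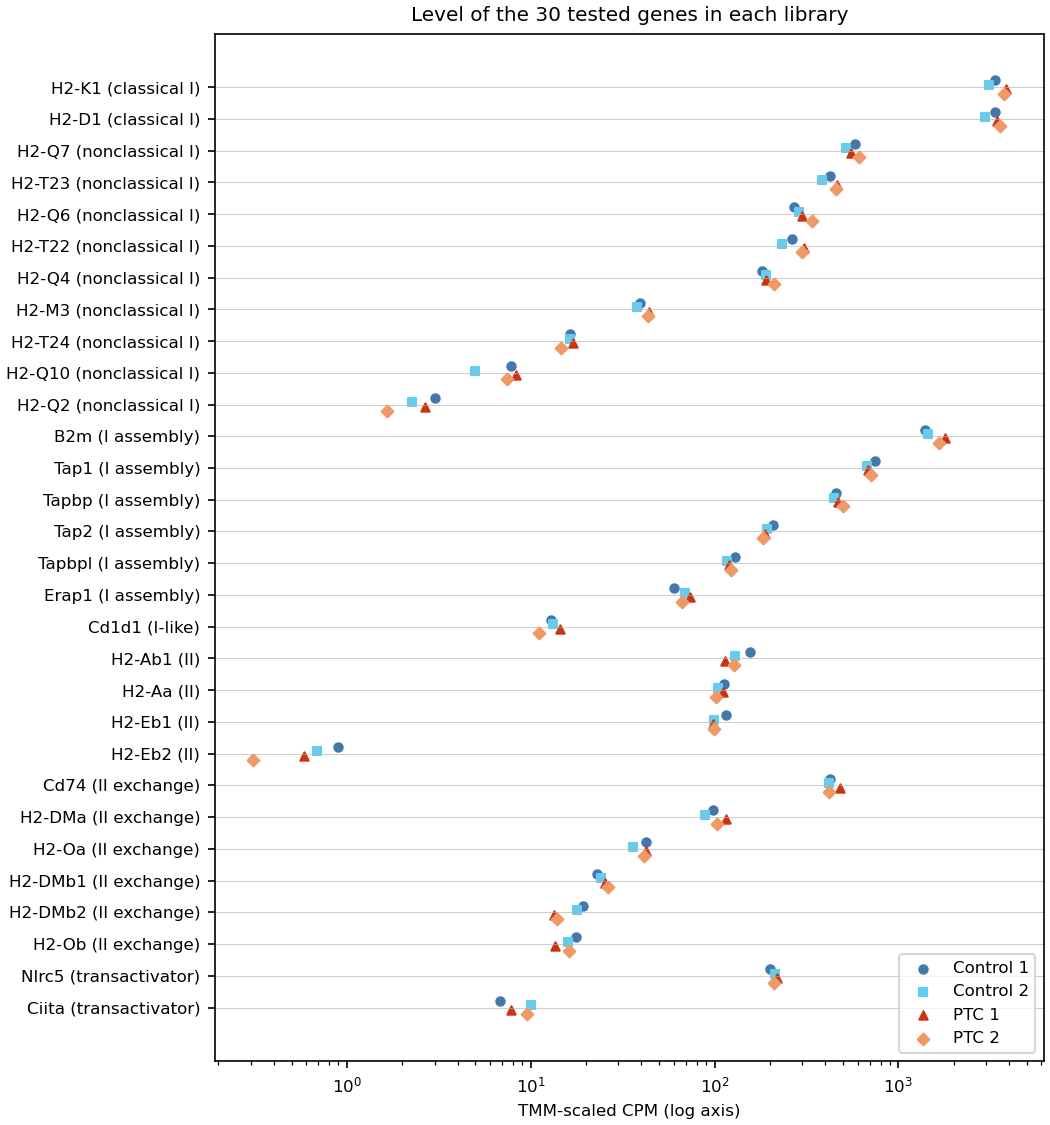
The horizontal axis gives the level in TMM-scaled CPM on a log axis, 1 point for each of the 4 libraries, and the vertical axis lists the 30 genes tested, by class. H2-K1, H2-D1 and B2m stand above 1000 CPM in every library, and H2-Eb2 under 1.

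With PTC, the summed class I heavy chain transcripts and B2m stood slightly higher and the summed class II chain transcripts slightly lower. The class II chains summed to 384 and 333 CPM in Control and 323 and 329.9 CPM in PTC, so Control 2 and PTC 2 were nearly level. No gene of the 44 passed the test over all genes. Of the 44, 30 had enough counts to be tested, and 0 were called by edgeR's quasi-likelihood test at a Benjamini-Hochberg adjusted p of 0.05, against 188 of 13884 genes tested (1.35%). DESeq2 called 3, limma-voom 1 and edgeR with upper-quartile scaling 1, all higher with PTC. The share of all genes called in the same fits was 1.93% of the 10654 genes with an adjusted p for DESeq2, 1.41% for limma-voom and 1.62% with upper-quartile scaling. RLE scaling called 0 members (1.28% of all genes) and edgeR without the filter 3 (1.88% of 22980 genes). With 1 library left out, edgeR called 5 members without Control 1 (2.93% of all genes), 3 without Control 2 (2.33%), 0 without PTC 1 (0.525%) and 0 without PTC 2 (1.11%). At an unadjusted p under 0.05 there were 8 members, 6 higher (6.01% of all genes tested were higher at that level) and 2 lower (6.89%). Both PTC libraries lay above both Control libraries for 11 of the 30 and below both for 4, where 21.3% and 22.2% of all genes tested did so. The median log2 fold change was 0.09 over the 30 and -0.003 over all genes tested.

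**Figure D2:**
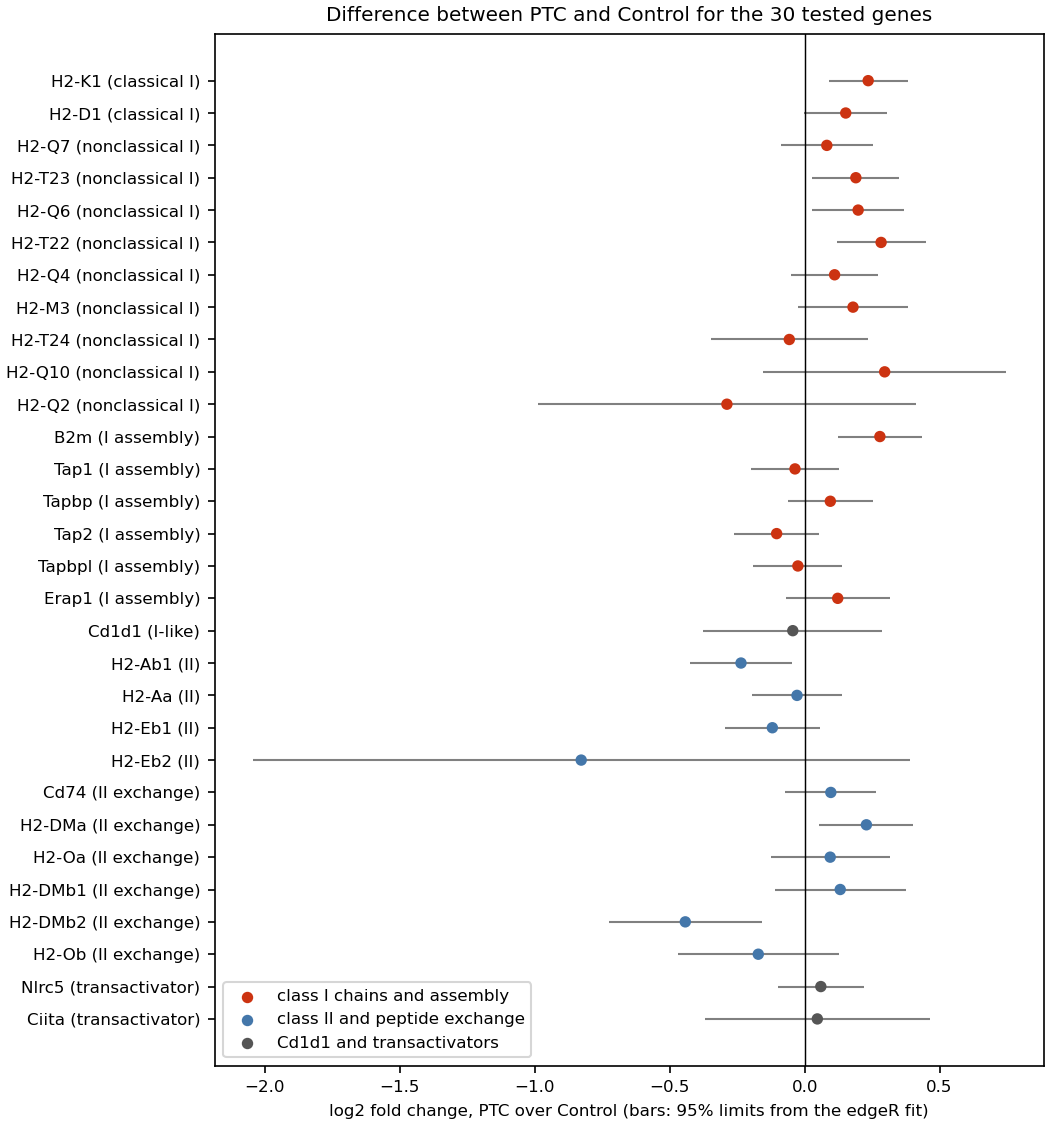
The horizontal axis gives the log2 fold change of PTC over Control and its 95% limits from the edgeR fit, and the vertical axis lists the 30 genes tested, by class. The 4 class II chain genes lie left of 0, and 9 of the 11 tested heavy chain genes lie right of it.

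The classical class I genes encode the molecules that present most peptides to CD8 T cells. H2-K1 (chr17:33996017-34000333) stood at 3365.5 and 3116 CPM in the Control libraries and at 3853 and 3778 CPM in the PTC libraries, so both PTC libraries were above both Control libraries. The mean went from 3241 ± 176 to 3815 ± 53.1 CPM (SD, n = 2 each). This is a log2 fold change of 0.24, standard error 0.07 (edgeR adjusted p = 0.115). H2-D1 (chr17:35262730-35267499) read 3336 and 2959.9 CPM in Control and 3444 and 3552 CPM in PTC, again without overlap, though Control 1 and PTC 1 were close. For H2-D1 the log2 fold change was 0.15, standard error 0.07 (edgeR adjusted p = 0.397). Without Control 1 edgeR called both genes (log2 fold change 0.30 and 0.25), and without Control 2 only H2-K1 (0.18), where H2-D1 was at 0.07 (adjusted p = 0.491). DESeq2 called H2-K1 at an adjusted p of 0.0296. Per length, the ratio of H2-K1 to H2-D1 was 0.998 and 1.04 in Control and 1.11 and 1.05 in PTC.

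B2m (chr2:122147686-122153083), the light chain that every class I heavy chain needs to reach the cell surface, read 1396 and 1457 CPM in Control and 1804 and 1658 CPM in PTC. The groups did not overlap, and PTC 1 was the highest library. The mean went from 1426 ± 43.7 to 1731 ± 103 CPM (SD, n = 2 each). The log2 fold change was 0.28, standard error 0.07 (95% limits 0.12 to 0.43, edgeR adjusted p = 0.073), the smallest adjusted p among the 44. B2m was called with upper-quartile scaling (adjusted p = 0.047), by DESeq2 (0.0071) and by limma-voom (0.040), and by edgeR without either Control library. It was not called without PTC 1 (log2 fold change 0.22) or without PTC 2 (0.34). B2m counts were 0.164 and 0.188 of the summed heavy chain counts in Control and 0.196 and 0.178 in PTC, so on this ratio the groups overlapped.

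The nonclassical class I genes encode molecules with narrower roles. H2-T23 encodes Qa-1, the ligand of the CD94/NKG2A receptor of killer cells, and stood at 423 and 385 CPM in Control and 464 and 458 CPM in PTC. H2-T22, whose product is bound by some gamma-delta T cell receptors, read 263 and 233 CPM in Control and 305 and 299 CPM in PTC. For both genes the PTC libraries were the higher pair. The log2 fold changes were 0.19 for H2-T23 (edgeR adjusted p = 0.287) and 0.28 for H2-T22 (0.087), and DESeq2 called H2-T22 (adjusted p = 0.037). Without Control 1 edgeR called both (0.27 and 0.38), and without Control 2 neither (0.13 and 0.20). H2-T10, a locus that the gene table lists as a polymorphic pseudogene and that is nearly a copy of H2-T22, read 30.9 and 30.5 CPM in Control and 38.6 and 37.1 CPM in PTC. H2-T22 and H2-T10 together read 294 and 264 CPM in Control and 344 and 336 CPM in PTC. A split of counted reads within the pair does not change this sum. Any reads left uncounted for fitting several places would be missing from it.

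In the Q region, H2-Q7 (583 and 516 CPM in Control, 554 and 609 CPM in PTC), a Qa-2 gene, overlapped between the groups. H2-Q6, also a Qa-2 gene, read 271 and 287 CPM in Control and 298 and 341 CPM in PTC, with a log2 fold change of 0.20 (edgeR adjusted p = 0.296). Without PTC 2 it was 0.10, and without PTC 1 0.29. The pair summed to 854 and 803 CPM in Control and 853 and 950.1 CPM in PTC, so the sum overlapped although H2-Q6 did not. H2-Q4, which encodes Qb-1, read 180.4 and 191 CPM in Control and 191 and 209.7 CPM in PTC, and its highest Control and lowest PTC libraries differed by less than 1 CPM. Its log2 fold change was 0.11, and 0.04 without PTC 2. H2-Q10, best known as a secreted class I gene of the liver, was near the low end at 7.86 and 4.97 CPM in Control and 8.33 and 7.42 CPM in PTC.

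H2-M3, which presents formylated peptides of bacteria and mitochondria, read 39.3 and 38.0 CPM in Control and 44.1 and 43.4 CPM in PTC. The replicates lay close together and the groups apart, with a log2 fold change of 0.18 (edgeR adjusted p = 0.455). H2-T24 overlapped at 16.4 and 16.4 CPM in Control and 17.04 and 14.5 CPM in PTC. H2-Q2, the ninth nonclassical gene tested, lay at 1.66 to 3.003 CPM and overlapped as well. The other 13 of the 22 nonclassical genes were too low to test. Among the 13, 8 had no count in any library, all of them H2-M genes, where 3 counts, the limit that a count of 0 allows, correspond to 0.184 to 0.195 CPM (counting error only). H2-M10.2, H2-M5 and H2-T3 had a single count in a single library, and H2-Q1 and H2-M2 stayed at or under 1.04 CPM. H2-Ke6, also untested, had 1 to 10 counts per library, and 62.9% of its words occur in Gm20427.

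Summed over the 24 heavy chain genes, the level was 8489 and 7750 CPM in Control and 9183 and 9314 CPM in PTC, 113.9% of the Control mean. Both PTC libraries were above both Control libraries, and the distance from Control 1 to PTC 1 was smaller than that between the Control libraries. The 2 classical genes made up most of the sum, H2-K1 39.6% to 42.0% and H2-D1 37.5% to 39.3% in the 4 libraries. In the same libraries the T cell markers summed to 5676 and 5448 CPM in Control and 6033 and 6213 CPM in PTC, 110.1% of the Control mean. All 12 T cell markers lay on the positive side (median log2 fold change 0.14), as did 49.3% of all genes tested. By edgeR 0 were called, against 1.35% of all genes tested. At an unadjusted p under 0.05, 6 were higher, against 6.01% of all genes tested. Their part in the class I difference was not tested. In bulk RNA, a change in the number of cells of a type and a change of RNA per cell cannot be told apart.

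**Figure D3:**
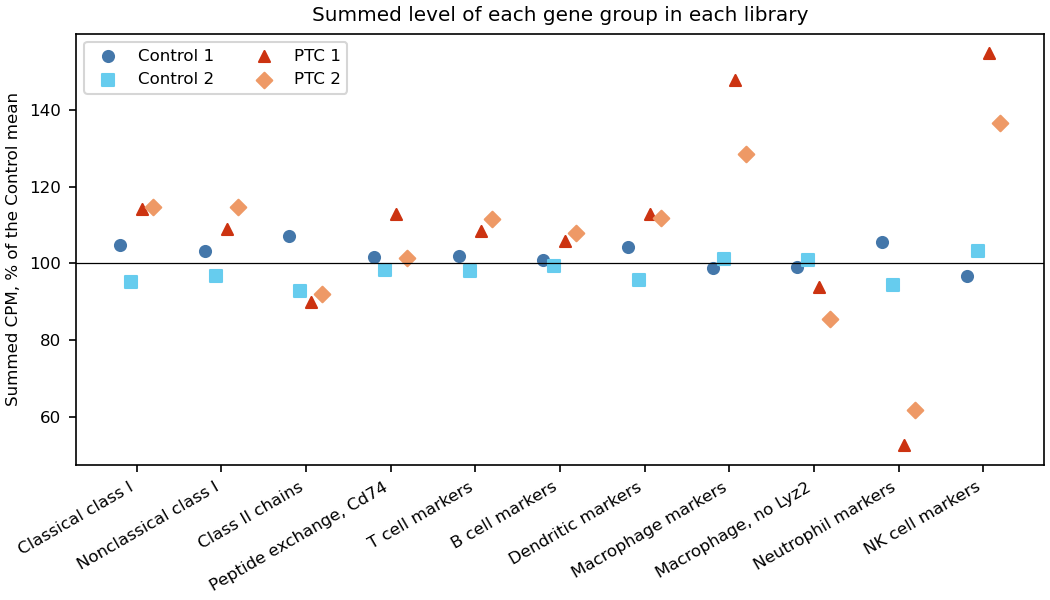
The vertical axis gives the summed TMM-scaled CPM of a gene group as a percentage of its Control mean, and each point is 1 of the 4 libraries. Classical and nonclassical class I and T cell markers are higher in both PTC libraries and class II chains and neutrophil markers lower in both; the macrophage sum is higher with Lyz2 and lower without it.

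The remaining class I genes supply and load the peptide, and 3 of these 5 had a fold change below 0. Tap1 and Tap2, which together form the peptide transporter, read 747 and 674 CPM and 208 and 192 CPM in Control against 680.4 and 706 CPM and 189 and 184 CPM in PTC. Tap2 was lower in both PTC libraries and Tap1 overlapped, with log2 fold changes of -0.10 and -0.04 (edgeR adjusted p = 0.605 and 0.898). Without Control 1 the Tap2 value was -0.04, and without Control 2 -0.16. The 95% limits of the Tap1 fold change, -0.20 to 0.13, do not reach the fitted value of B2m, though the difference between genes was not tested. The ratio of Tap1 to Tap2 per length was 2.48 and 2.42 in Control and 2.49 and 2.65 in PTC.

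Tapbp encodes tapasin, which holds empty class I molecules at the transporter, and read 459.6 and 448 CPM in Control and 469 and 500.5 CPM in PTC. Tapbpl, which encodes the tapasin relative TAPBPR that edits the bound peptide, stood at 129 and 117 CPM in Control and 119 and 123 CPM in PTC. Erap1, the aminopeptidase that trims peptides in the endoplasmic reticulum, read 59.9 and 69.3 CPM in Control and 73.8 and 66.9 CPM in PTC. Tapbp was slightly higher in both PTC libraries and the other pair overlapped. None was called (edgeR adjusted p = 0.642, 0.931 and 0.619). With 1 library left out, the log2 fold change ran from 0.05 to 0.14 for Tapbp and from 0.03 to 0.24 for Erap1. Erap1 shares 14.0% of its words with Cast, Tapbp 19.0% with Gm19412 and Tap1 5.61% with Psmb9, and without a stated strand setting reads of such overlapping genes cannot be told apart.

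Cd1d1 encodes CD1d, which presents lipids to NKT cells and lies outside the MHC on chromosome 3. It was low, at 12.97 and 13.3 CPM in Control and 14.4 and 11.1 CPM in PTC, and overlapped between the groups (edgeR adjusted p = 0.946). Its near copy Cd1d2 holds 25.8% of its words.

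Nlrc5, the class I transactivator, read 199 and 213 CPM in Control and 220.0 and 210.2 CPM in PTC. The groups overlapped and the log2 fold change was 0.06 (95% limits -0.10 to 0.22, edgeR adjusted p = 0.800). Ciita, the class II transactivator, stood per length at 0.882 CPM per kilobase in Control, against 24.3 for Nlrc5. It read 6.84 and 9.99 CPM in Control and 7.81 and 9.57 CPM in PTC. The replicates of each group differed more than the groups (log2 fold change 0.05, edgeR adjusted p = 0.952), and the direction turned without Control 1 and without PTC 2.

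The class II chain genes lie between H2-K1 and H2-D1 on chromosome 17. H2-Ab1, the beta chain gene of the A molecule, read 155 and 130 CPM in Control and 114 and 128 CPM in PTC, so both PTC libraries were lower, with Control 2 and PTC 2 nearly level. Its fitted log2 fold change was -0.24, standard error 0.09 (edgeR adjusted p = 0.250). It was -0.36 and called without Control 2, and not called without Control 1 (-0.09) or without PTC 1 (-0.15), so its size depended on single libraries of both groups. Its partner H2-Aa, the alpha chain gene, overlapped at 113 and 104 CPM in Control and 111 and 102 CPM in PTC (log2 fold change -0.03, edgeR adjusted p = 0.925). Per length, the ratio of H2-Ab1 to H2-Aa was 1.57 and 1.43 in Control and 1.18 and 1.43 in PTC.

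H2-Eb1, the beta chain gene of the E molecule, read 115 and 99.1 CPM in Control and 97.8 and 99.6 CPM in PTC, where Control 1 stood apart from 3 nearly equal libraries. H2-Eb2 was tested at 0.894 and 0.691 CPM in Control and 0.585 and 0.307 CPM in PTC, from 5 to 14 counts per library (log2 fold change -0.83, edgeR adjusted p = 0.590). The E alpha locus, H2-Ea-ps, is listed as a pseudogene and had 0 counts in all libraries, and mice of the b haplotype are known not to make E alpha. The 4 chain genes summed to 384 and 333 CPM in Control and 323 and 329.9 CPM in PTC, 90.9% of the Control mean.

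Cd74 encodes the invariant chain, which guides new class II molecules to the endosome, and had the highest level per length of the class II set (299 CPM per kilobase in Control). It read 424 and 419 CPM in Control and 482 and 419.9 CPM in PTC. Its higher mean with PTC came from PTC 1, and the log2 fold change was 0.10 with all libraries (edgeR adjusted p = 0.662) and -0.004 without PTC 1. Per length, Cd74 stood at 4.98 and 5.36 times H2-Aa in Control and 5.79 and 5.46 times in PTC. H2-DMa and H2-DMb1 or H2-DMb2 encode the alpha and beta chains of DM, which exchanges the invariant chain fragment for a peptide. H2-DMa read 97.6 and 88.6 CPM in Control and 115 and 103 CPM in PTC, without overlap (log2 fold change 0.23, edgeR adjusted p = 0.220), and at 0.15 without PTC 1.

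The beta chain genes of DM had fold changes of opposite sign. H2-DMb2 read 19.2 and 17.9 CPM in Control and 13.4 and 13.9 CPM in PTC, a log2 fold change of -0.44, standard error 0.13 (edgeR adjusted p = 0.128). H2-DMb1 read 22.8 and 24.2 CPM in Control and 25.2 and 26.3 CPM in PTC, with a log2 fold change of 0.13 (edgeR adjusted p = 0.686). Both genes had groups that did not overlap. Their sum was 42.0 and 42.1 CPM in Control and 38.6 and 40.2 CPM in PTC, 93.7% of the Control mean. The genes share 25.2% to 27.2% of their words, and the part of read assignment in the opposite signs was not tested. H2-DMb2 was not called under any of the 10 alternative settings, where its log2 fold change ran from -0.49 to -0.38.

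H2-Oa and H2-Ob encode DO, the inhibitor of DM that is best known from B cells. H2-Oa read 42.6 and 36.0 CPM in Control and 42.3 and 41.5 CPM in PTC, and H2-Ob 17.7 and 15.9 CPM in Control and 13.6 and 16.2 CPM in PTC. Both overlapped between the groups (edgeR adjusted p = 0.763 and 0.664). H2-Oa shares 21.7% of its words with BC051537.

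Markers of the cells known for class II differed in their levels and directions. Of the B cell markers, Ms4a1 stood at 0.447 to 0.976 CPM and Cd79b at 12.1 to 14.0 CPM. Igkc rose from 30.3 and 33.7 CPM to 62.7 and 46.3 CPM (edgeR adjusted p = 0.0033), and the 11 genes summed to 533 and 524 CPM in Control and 560.0 and 571 CPM in PTC, most of it Ighm. Without Ighm the other 10 summed to 51.9 and 53.9 CPM in Control and 86.1 and 70.3 CPM in PTC.

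Of the dendritic cell markers, Siglech and Cd209a were at 0 in all libraries. Itgax read 18.8 and 17.1 CPM in Control and 14.2 and 15.52 CPM in PTC, lower in both PTC libraries but not called. Flt3 read 2.24 and 1.76 CPM in Control against 1.11 and 1.84 CPM in PTC. Clec10a, in contrast, read 17.1 and 14.7 CPM in Control and 23.3 and 18.7 CPM in PTC, higher in both PTC libraries but not called. Of the 7 tested, 5 had a positive and 2 a negative fold change, where 49.3% of all genes tested were positive. The sum of the 10 was 219 to 239 CPM in Control and 256 to 259 CPM in PTC, most of it Cst3, and without Cst3 66.8 to 72.7 CPM and 75.5 to 77.3 CPM.

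The sum of the 11 macrophage markers, 979 to 1003 CPM in Control and 1274 to 1466 CPM in PTC, was carried by Lyz2. Lyz2, the lysozyme of myeloid cells, rose 1.45-fold (edgeR adjusted p = 0.0017, not called without PTC 1). Without Lyz2 the other 10 summed to 114 and 116 CPM in Control and 108 and 98.2 CPM in PTC, lower in both PTC libraries. Cd14 fell to 57.5% of Control (adjusted p = 0.013, not called without Control 1), and Csf1r, the receptor of the macrophage growth factor, read 39.9 and 41.4 CPM in Control and 36.2 and 34.0 CPM in PTC without a call. C1qa and C1qb were low but higher in both PTC libraries, also without a call. C1qa read 0.639 and 0.817 CPM in Control and 1.82 and 1.90 CPM in PTC. C1qb read 2.75 and 3.27 CPM in Control and 5.66 and 4.05 CPM in PTC. Of the 11, 4 were above and 4 below both Control libraries in both PTC libraries, where 21.3% and 22.2% of all genes tested were.

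The neutrophil and NK cell sums differed more, and the NK cell sum was carried by Eomes. The 8 neutrophil markers summed to 104 and 92.5 CPM in Control and 51.5 and 60.6 CPM in PTC, 57.2% of the Control mean. Of the 7 tested, 3 were called, against 1.35% of all genes tested. Mpo and Elane, granule enzyme genes of neutrophil precursors, fell (log2 fold change -1.70 and -2.36, edgeR adjusted p = 8.94e-06 and 4.02e-05), whereas S100a8 rose (0.69, adjusted p = 0.014, not called without PTC 1). Without Mpo the sum was 45.0 to 50.02 CPM in Control and 40.1 to 41.2 CPM in PTC. In the NK cell list Eomes, a factor that activated CD8 T cells also express, rose from 41.5 and 44.4 CPM to 69.3 and 59.7 CPM (0.59, adjusted p = 0.0039, not called without PTC 1), and Ncr1 stood at 0.314 to 0.520 CPM. Without Eomes the other 4 NK cell markers summed to 4.54 and 4.59 CPM in Control and 4.23 and 5.21 CPM in PTC, so the groups overlapped. The part of any of these cells in the class I and class II values, and which cells the class II transcripts came from, was not tested.

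Genes of the same pathway that are not in the set were read from 4 lists, and 4 of their 60 genes rose with PTC and 0 fell over all genes tested. The background was 0.591% of genes tested rising and 0.763% falling. Of 18 genes that make the peptide and help the class I chain to fold, 3 rose. Calr, the chaperone calreticulin of the peptide-loading complex, went from 487 and 477 CPM to 647 and 631 CPM (log2 fold change 0.41, edgeR adjusted p = 0.0073). Pdia3, the oxidoreductase ERp57 of the same complex, went from 284 and 296 CPM to 403 and 359.7 CPM (0.39, adjusted p = 0.016). Psme1, a subunit of the interferon-induced proteasome activator PA28, went from 338 and 332 CPM to 422 and 429 CPM (0.34, adjusted p = 0.023). These chaperones serve many glycoproteins besides class I.

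Of 18 genes of interferon-gamma signalling, Socs1, a feedback inhibitor, rose from 136 and 133 CPM to 176 and 171 CPM (log2 fold change 0.37, edgeR adjusted p = 0.018). Ifng itself was low, at 1.26 to 1.53 CPM in all libraries. Irf1, a transcription factor induced by interferon, had a log2 fold change of 0.11 and was not called (edgeR adjusted p = 0.591). Of 10 class II pathway genes 0 were called by edgeR. At an unadjusted p under 0.05, 2 were higher, where 6.01% of all genes tested were. Ctss, the protease that cuts the invariant chain, was at 0.26 on the log2 scale (edgeR adjusted p = 0.148). Of 14 promoter factor genes 0 were called (2 unadjusted), and Nfya and Hdac1 had log2 fold changes of 0.19 and 0.18 (adjusted p = 0.306 and 0.297). Of the pathway genes called, Calr, Psme1 and Socs1 were not called by edgeR without PTC 1 or without PTC 2. Pdia3 was not called without PTC 1. The log2 fold changes without PTC 1 and without PTC 2 were 0.39 and 0.43 for Calr and 0.31 and 0.47 for Pdia3. For Psme1 they were 0.36 and 0.33, and for Socs1 0.34 and 0.39. A fit without one library of a group takes its spread from the other group alone.

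**Figure D4:**
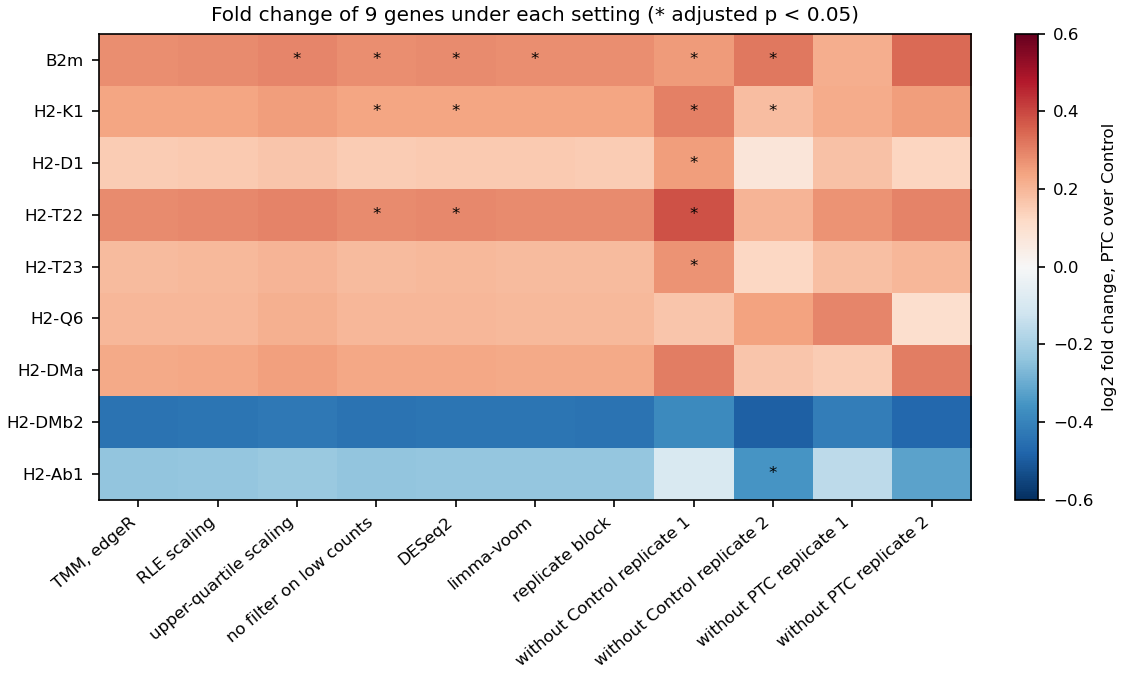
The vertical axis lists the 8 members with an unadjusted p under 0.05 and H2-D1, the horizontal axis the TMM and edgeR fit and the 10 alternative settings, the colour is the log2 fold change of PTC over Control, and an asterisk marks an adjusted p under 0.05. No column without a PTC library has an asterisk, and B2m has the most, in 6 of the 10 alternatives.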

How the data were processed

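Per the labels, total RNA of primary T cells was sequenced with standard Illumina libraries. The authors deposited raw read counts per gene; per the submitters' processing notes, the tools were CASAVA 1.8, HISAT2 2.0.5 and featureCounts 1.5.0-p3. For the genome build, strand setting and multi-mapping rule: not given in the sources used here. All 44 gene IDs were found in GENCODE M21 (GRCm38), 34 with the same start and end. Another 2 count columns match no sample and were not used. Samples were grouped by treatment label.

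Counts were filtered with filterByExpr (13884 genes left), TMM-scaled and compared with edgeR 4.0.16 (R 4.3.3) by its quasi-likelihood test, group alone, with Benjamini-Hochberg adjustment over all genes and a threshold of 0.05. The common dispersion gave a biological coefficient of variation of 6.97%. The code was tested on simulated data. Alternatives were other scalings, no filter, DESeq2 1.42.0, limma-voom (limma 3.58.1), a replicate block and leaving out each library. Marker sums without the most abundant gene of each list were added after seeing the data. Coding sequences were aligned with MAFFT 7.526. Genes and lists were chosen with earlier results of these data known. Every gene with a mean of at least 100 counts, and the class II genes, is given in every library; from each other pathway list up to 3 called genes, else the one with the smallest p, were named, and from marker lists the most abundant and defining genes; other genes named were chosen after their values were seen.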

Additional observations from a re-analysis of the deposited data

How the results depend on the processing

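The count of called members depended on the setting. It was 0 under TMM and edgeR, RLE scaling and the replicate block, 1 with upper-quartile scaling (B2m) and limma-voom (B2m), and 3 without a filter on low counts and by DESeq2 (B2m, H2-K1 and H2-T22 both times; for 2 members DESeq2 left the adjusted p empty). Without 1 library it ran from 0 (either PTC library) to 5 (without Control 1: B2m, H2-K1, H2-D1, H2-T22 and H2-T23); without Control 2 it was 3 (B2m and H2-K1 higher, H2-Ab1 lower). The lone library of a group is then assumed to vary like the pair of the other. Over all genes, the count went from 188 to 432 without a filter, and from 76 (without PTC 1) to 422 (without Control 1) with a library left out. The other pathway genes called went from 4 to 8 without a filter, and from 0 (without PTC 1) to 10 (without Control 1). The titles number the libraries in each group, but the numbers do not pair them by any label; deviations of same-numbered libraries correlated at -0.058 across genes, and the replicate block called 237 genes, 0 members and 4 other pathway genes. The shift of the median log2 fold change was 0.003 with RLE and 0.02 with upper-quartile scaling. Among the members tested, directions turned under no alternative but a left-out library, in 10 genes with log2 fold changes near 0 or low counts. Their lowest and highest values over the 4 such fits were -0.105 and 0.0502 for Tap1, -0.0914 and 0.0576 for Tapbpl, -0.0835 and 0.0421 for H2-Aa, and -0.222 and 0.00344 for H2-Eb1, each turning without Control 1. They were -0.0192 and 0.231 for H2-Oa (without Control 2) and -0.00373 and 0.194 for Cd74 (without PTC 1). Without PTC 2 the turn was in Cd1d1 (-0.238 and 0.134), H2-T24 (-0.173 and 0.0559), H2-Q2 (-0.663 and 0.0209) and H2-Aa (0.0283). Ciita ran from -0.191 (without Control 1) to 0.351 (without Control 2), with -0.108 without PTC 2. The cause was not tested.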
